A study of Homo sapiens with 8 samples.

Results

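The data were break regions on chromosomes 3, 5, 9, 15, 17, 18, 19, 20, 21 and 22, the 10 autosomes that only 1 of the 2 control libraries listed. They were chosen by chromosome name: every region on these chromosomes was taken from the 4 lists of cells treated with 4-hydroxytamoxifen (OHT), and the control values came from the replicate in which the chromosome was present. This gave 3031 of the 10211 regions in the 4 lists. The control shNT+OHT contributed 168 regions from replicate 1, on chromosomes 3, 9, 15, 17 and 21, and 160 regions from replicate 2, on chromosomes 5, 18, 19, 20 and 22. The CDK12-silenced shCDK12+OHT contributed 1518 regions from replicate 1 and 1185 from replicate 2. Chromosome 19 was listed by shCDK12+OHT replicate 2 and not by replicate 1. Presence of a chromosome was read from these same lists and chose the members, so the absence from the other control list is a description and carries no test. Whether a list that lacks a whole chromosome is complete was not tested.

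All cells were U2OS, a human osteosarcoma line, with the MycER fusion of Myc and the oestrogen receptor, which OHT switches on (300 nM for 40 h). Doxycycline at 1 µg/mL induced the hairpin, which targeted CDK12 in shCDK12 cells and no transcript in shNT cells. Nocodazole (100 ng/mL for 8 h) arrested the cells in mitosis, after which mitotic cells were shaken off, released for 18 h and fixed in 2% paraformaldehyde. Double-strand breaks were mapped by sBLISS, which ligates an adapter with a unique molecular identifier (UMI) to break ends in fixed cells, and the lists hold BLISS+ regions on a grid of 2 kb bins, which the methods describe as bins above a threshold of UMIs joined with their near neighbours. Of the 8 libraries in 4 groups of 2 named in the labels, those 4 that lack OHT were not analysed here, which leaves the values below without a background from cells with inactive MycER. The CDK12 level was not measured in these lists, so the silencing itself could not be checked.

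CDK12 is a kinase that phosphorylates RNA polymerase II during elongation and sustains the expression of long genes, many of the DNA damage response among them. Oncogenic Myc brings DNA synthesis forward into transcribed DNA, where collisions of the replisome with RNA polymerase can break the template. Among the chromosomes described here, 17, 19, 20 and 22 are rich in genes, chromosome 18 is poor in genes, and 15, 21 and 22 are acrocentric, with short arms that the reference assembly leaves largely without sequence.

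The lists hold positions and no counts, and library depth is therefore unknown. Nothing in the labels says that replicates came from separate cultures, and a p-value over libraries then measures only the spread between these samples. With 1 control library against 2 shCDK12+OHT libraries, the exact permutation test has 3 relabellings and cannot give a two-sided p-value below 0.333. Coordinates are those of hg19. The reference at hand was hg38, and 9 and 7 regions of shCDK12+OHT replicates 1 and 2 on these chromosomes ran past the hg38 chromosome ends while none ran past those of hg19, so neither genes nor sequences were assigned.

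To ask how many more regions were listed after CDK12 silencing, the density of BLISS+ regions was computed per Mb of chromosome. On the 5 chromosomes of shNT+OHT replicate 1 the density was 0.294 regions per Mb in that replicate, against 1.50 and 1.11 in shCDK12+OHT replicates 1 and 2 (mean 1.31 ± 0.276, SD, n = 2). The log2 ratio was 2.15, a 4.44-fold higher density. On chromosomes 5, 18, 20 and 22 the density was 0.415 in shNT+OHT replicate 2, against 1.77 and 1.41 in shCDK12+OHT (mean 1.59 ± 0.256, SD, n = 2), a log2 ratio of 1.93 and a 3.82-fold higher density. Both exact permutation p-values were 0.333, the smallest possible, and 0.4 after Benjamini-Hochberg adjustment over 12 tests. Each shCDK12+OHT list held more regions than the control list on all 9 chromosomes listed by both shCDK12+OHT replicates. The same was true of 100% of the 17 chromosomes for which the whole series allows the comparison, so this count says nothing particular about these 9.

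The size of the difference varied from chromosome to chromosome. Chromosome 20 had the largest ratio, with 13 control regions against 131 and 109 in shCDK12+OHT, 9.23-fold on average. Chromosome 9 followed, with 16 control regions against 146 and 106 (7.88-fold), then chromosome 15 with 23 against 194 and 131 (7.07-fold) and chromosome 22 with 17 against 149 and 82 (6.79-fold). Chromosome 3 held 44 control regions against 256 and 218 (5.39-fold), and chromosome 5 held 65 against 235 and 215 (3.46-fold). The smallest ratios were those of chromosomes 17, 18 and 21. Chromosome 17 held 62 control regions against 221 and 147 (2.97-fold), chromosome 18 held 60 against 145 and 119 (2.20-fold), and chromosome 21, the smallest autosome, held 23 against 41 and 33 (1.61-fold). The control values of chromosomes 3, 9, 15, 17 and 21 come from 1 library and those of chromosomes 5, 18, 20 and 22 from another. On the 8 chromosomes that every list holds, these libraries had 0.730 and 0.448 regions per Mb. The order across the 2 sets therefore also holds that difference between libraries. Within the first set chromosome 9 had the largest ratio and 21 the smallest, and within the second these were chromosomes 20 and 18.

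Per Mb of full chromosome length, the densest chromosomes in shCDK12+OHT were the gene-rich 22, 17 and 20. They held 2.90, 2.72 and 2.08 regions per Mb in replicate 1 and 1.60, 1.81 and 1.73 in replicate 2. Their order differed between the replicates, and chromosome 22 differed most between them (mean 2.25 ± 0.923, SD, n = 2). Chromosomes 18 (1.86 and 1.52) and 15 (1.89 and 1.28) lay below these. Per Mb between the outermost listed regions, however, the shCDK12+OHT mean of the acrocentric chromosome 15 (2.00) lay above that of chromosome 20 (1.93). By full length, the 4 sparsest chromosomes listed in both replicates kept 1 order in each. It ran from chromosome 5 (1.30 and 1.19) and chromosome 3 (1.29 and 1.10) to chromosome 9 (1.03 and 0.751) and chromosome 21 (0.852 and 0.686). Between the outermost listed regions, the shCDK12+OHT mean of the acrocentric chromosome 21 (0.968) lay above that of chromosome 9 (0.930), so this order depends on the length used. Chromosomes 5 and 3 differed by less than the spread between replicates. In the control, chromosomes 17 (0.764) and 18 (0.768) were the densest of the chromosomes described here from their respective libraries, and chromosomes 9 (0.113) and 19 (0.0846) the sparsest. Chromosome 19, the most gene-rich of all human chromosomes, was also the sparsest in shCDK12+OHT replicate 2, with 25 regions or 0.423 per Mb.

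**Figure D1:**
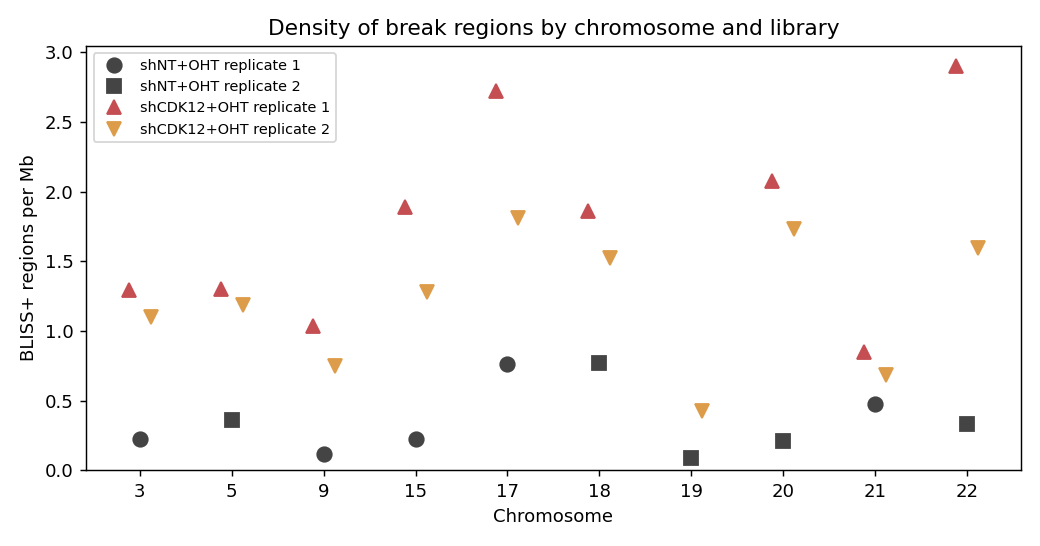
BLISS+ regions per Mb (y axis) on each of the 10 chromosomes (x axis), with 1 point per library and grey symbols for the control replicate that lists the chromosome. Both shCDK12+OHT points lie above the control on all 9 chromosomes with 2 such points, and the gap is narrowest on chromosome 21 (0.478 against 0.852 and 0.686).

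Since the yield of each library is unknown, each density was also divided by the density of the same library on the 8 chromosomes that every list holds (1, 2, 4, 6, 7, 8, 10 and 14). Taken this way, chromosomes 3, 9, 15, 17 and 21 reached 0.403 of that level in shNT+OHT replicate 1 and 0.829 and 0.761 in shCDK12+OHT, a log2 ratio of 0.98. Chromosomes 5, 18, 20 and 22 reached 0.928 in shNT+OHT replicate 2 and 0.975 and 0.963 in shCDK12+OHT, a log2 ratio of 0.06. Both exact permutation p-values were again 0.333 (0.4 after adjustment). The excess of shCDK12+OHT was 4.44-fold on the first set beside 2.24-fold over the same control library on the 8 shared chromosomes, and 3.82-fold on the second set beside 3.66-fold. Both the sets and the 8 shared chromosomes were chosen by their listing in the control. The relative values and their p-values are therefore a description and no test of how these chromosomes differ from the shared ones.

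Single chromosomes ran in both directions on this relative scale. Chromosome 18 stood at 1.72 in the control against 1.02 and 1.04 in shCDK12+OHT, and chromosome 21 at 0.655 against 0.470 and 0.470. For chromosome 5 the control value of 0.803 lay between those of shCDK12+OHT (0.717 and 0.814). The other 6 chromosomes listed in both shCDK12+OHT replicates had lower relative densities in the control, from 0.155 against 0.570 and 0.514 on chromosome 9 to 1.05 against 1.50 and 1.24 on chromosome 17. Chromosomes 18 and 21 thus held more of the control's regions, relative to its shared chromosomes, than of shCDK12+OHT's.

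Regions were also wider in shCDK12+OHT. A region of 1 bin spans 2 kb, and such regions made up 91.7% of the list in shNT+OHT replicate 1 on its 5 chromosomes, against 71.9 and 74.8% in shCDK12+OHT. On chromosomes 5, 18, 20 and 22 the shares were 91.6% in shNT+OHT replicate 2 and 71.5 and 78.5% in shCDK12+OHT. The mean width was 2.36 kb in the control and 3.11 and 2.87 kb in shCDK12+OHT on the first set, and 2.46 kb against 3.10 and 2.83 kb on the second. Covered length accordingly differed more than the number of regions, at 0.693 kb per Mb against 4.67 and 3.19 on the first set (log2 ratio 2.50) and 1.02 against 5.49 and 3.98 on the second (log2 ratio 2.21). Each of these comparisons gave 0.333 in the exact permutation test (0.4 once adjusted). The difference in mean width held over all regions and not among regions of at least 4 kb, where it was -0.579 kb on the first set and -1.68 kb on the second.

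Next, regions were counted in windows of 5 Mb to see where along the chromosomes they lay. The 9 chromosomes listed by both shCDK12+OHT replicates have 194 windows, of which 176 held a region in any list. A control region was present in 94 windows, and both shCDK12+OHT replicates had regions in 173, including 80 windows with no control region. Both shCDK12+OHT lists exceeded the control in 157 windows (89.2%), beside 83.9% over all chromosomes that allow this count. The latter share includes chromosomes with 2 control lists, each of which had to be exceeded, so the shares are not like for like. In 5 windows the control exceeded both. These were 20 to 25 and 25 to 30 Mb on chromosome 5 (5 control regions against 4 and 4, and 6 against 1 and 4), 5 to 10 and 10 to 15 Mb on chromosome 21 (2 against 1 and 1, and 7 against 4 and 3) and 80 to 85 Mb on chromosome 3 (1 against none).

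Window counts of the shCDK12+OHT replicates followed each other closely, with Pearson's r of 0.928 and Spearman's rho of 0.868 over 176 windows. Counts of the control and the mean of shCDK12+OHT gave r of 0.676 and rho of 0.392 over the same windows. This likeness was weaker without chromosomes 17 and 18, at r of 0.453 over 145 windows. When shCDK12+OHT regions that touch a control region were left out, r was 0.584 and rho 0.311, and without chromosomes 17 and 18 r was 0.363. On chromosome 20 this r was -0.443. These coefficients describe windows of shared sequence content and neighbouring position, not independent samples, and carry no p-value.

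**Figure D2:**
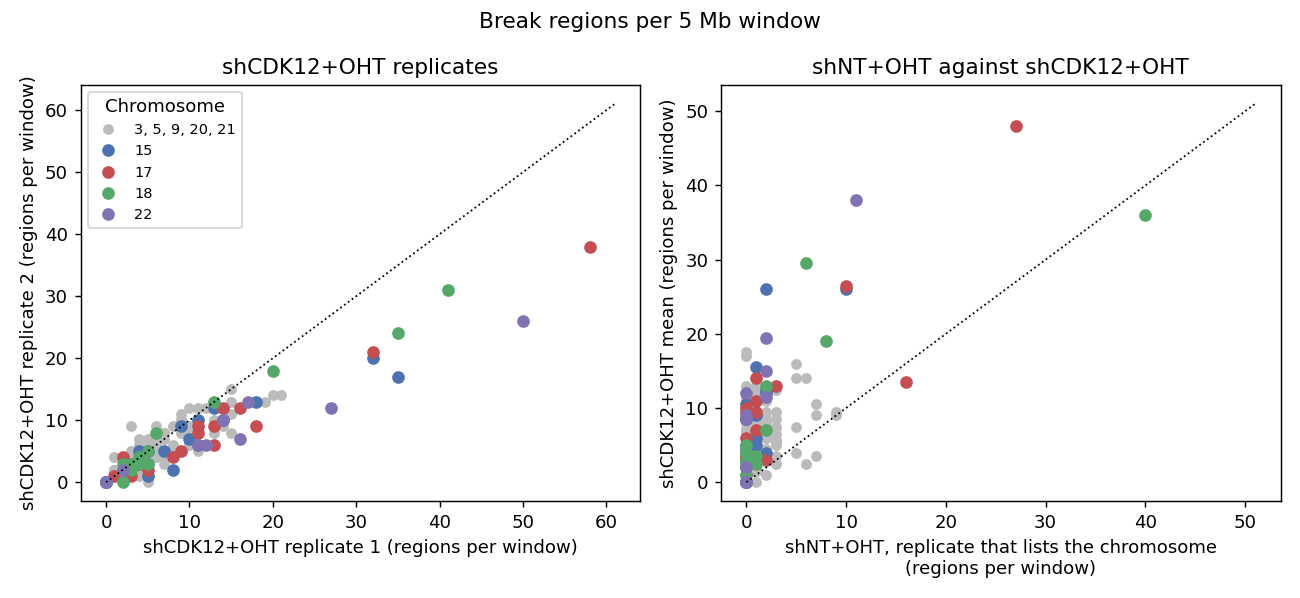
Regions per 5 Mb window on the 9 chromosomes without 19, with 1 point per window, for shCDK12+OHT replicate 1 against replicate 2 (left) and the control replicate that lists the chromosome against the mean of shCDK12+OHT (right). The dotted line marks equal counts, and the densest windows belong to chromosomes 17, 18 and 22, at 48, 36 and 38 regions on average in shCDK12+OHT.

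On chromosomes 17, 18 and 22 the densest window of the control was also the densest of each shCDK12+OHT replicate. On chromosome 17 it was 55 to 60 Mb on the long arm, with 27 regions in the control and 58 and 38 in shCDK12+OHT replicates 1 and 2. On chromosome 18 it was the first 5 Mb of the short arm, with 40 control regions and 41 and 31 in shCDK12+OHT. The counts of the groups overlapped in that window and not in those of chromosomes 17 and 22. On chromosome 22 the window from 25 to 30 Mb held 11 control regions and 50 and 26 in shCDK12+OHT, above the control in both. On chromosome 15 the densest control window, from 60 to 65 Mb, held 10 regions against 35 and 17, and it tied on the shCDK12+OHT mean with the next window, from 65 to 70 Mb, which held 2 against 32 and 20.

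Neighbouring windows extended these peaks into stretches of 10 or 15 Mb, whose limits were drawn after the counts had been seen. The stretch from 55 to 70 Mb on chromosome 17, 18.5% of its length, held 53 of 62 control regions (85.5%), 108 of 221 regions in shCDK12+OHT replicate 1 (48.9%) and 68 of 147 in replicate 2 (46.3%). The first 15 Mb of chromosome 18, almost its whole short arm and 19.2% of its length, held 54 of 60 control regions (90%), 96 of 145 (66.2%) and 73 of 119 (61.3%). The long arm of chromosome 18 was nearly empty in the control, at 0.0982 regions per Mb, and held 0.802 and 0.753 per Mb in shCDK12+OHT. On chromosome 22 the stretch from 20 to 30 Mb held 13 of 17 control regions (76.5%), 77 of 149 (51.7%) and 38 of 82 (46.3%). On chromosome 15 that from 60 to 70 Mb held 12 of 23 control regions (52.2%), 67 of 194 (34.5%) and 37 of 131 (28.2%). In each of these stretches the control was the more concentrated. The stretches extend the densest control windows, which can in itself raise the share of the control, so this difference is a description. In number, shCDK12+OHT had more regions both inside and outside. Outside the stretch on chromosome 17, for example, the density was 0.136 regions per Mb in the control and 1.71 and 1.19 in shCDK12+OHT.

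Chromosomes 3 and 5 were also more concentrated in the control, in stretches again drawn after the counts had been seen. They were drawn where control regions were dense, which in itself raises the share of the control, so the difference is a description. The stretch from 95 to 130 Mb on the long arm of chromosome 3, 17.7% of its length, held 29 of 44 control regions (65.9%), against 75 of 256 (29.3%) and 68 of 218 (31.2%) in shCDK12+OHT. The first 45 Mb of chromosome 5, close to its short arm and 24.9% of its length, held 40 of 65 control regions (61.5%), against 73 of 235 (31.1%) and 65 of 215 (30.2%). On the long arm of chromosome 5 the control had 0.189 regions per Mb and shCDK12+OHT 1.22 and 1.13. The densest windows lay next to each other on chromosome 5, at 40 to 45 Mb in the control (9 regions against 10 and 8) and at 35 to 40 Mb in shCDK12+OHT (5 against 19 and 13). On chromosome 3 they were 95 to 100 Mb in the control (9 against 9 and 10) and, with the same shCDK12+OHT counts of 15 and 13, both 110 to 115 and 120 to 125 Mb in shCDK12+OHT (6 and 5 control regions).

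**Figure D3:**
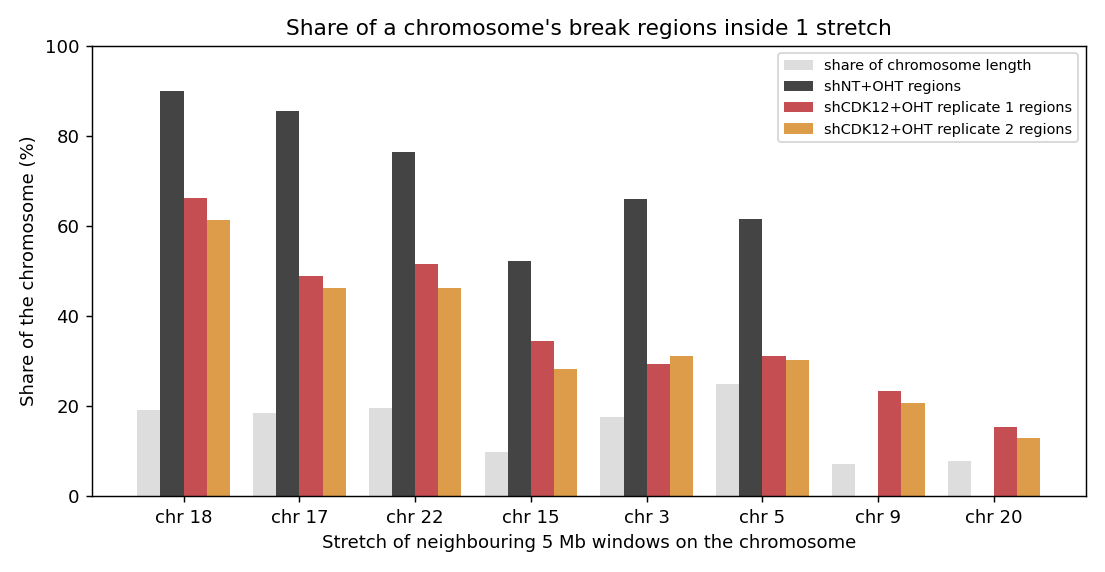
Share of a chromosome's BLISS+ regions (y axis, percent) that fell inside 1 stretch of neighbouring 5 Mb windows on 8 chromosomes (x axis), for the control and both shCDK12+OHT replicates, beside the share of the chromosome's length in pale grey. The control bar is highest for the first 6 stretches, up to 90% on chromosome 18, and is 0 for the stretches of chromosomes 9 (30 to 40 Mb) and 20 (30 to 35 Mb). All stretches were drawn after the counts had been seen.

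On chromosomes 9 and 20 the window with the highest shCDK12+OHT mean held no control region. On chromosome 9 the window from 35 to 40 Mb held 21 and 14 regions in shCDK12+OHT and none in the control, and the stretch from 30 to 40 Mb held 34 of 146 (23.3%) and 22 of 106 (20.8%) against 0 of 16. The densest control window, 25 to 30 Mb, adjoined it, with 7 of the 16 control regions (43.8%) against 10 and 8 in shCDK12+OHT. On chromosome 20 the window from 30 to 35 Mb, on the long arm next to the centromere, held 20 and 14 regions in shCDK12+OHT and none in the control. In replicate 2 the window from 55 to 60 Mb was denser by 1 region, with 2 control regions against 15 and 15. Over the 13 windows of chromosome 20, control and mean shCDK12+OHT counts gave r of -0.335, the only negative value among the 9 chromosomes with a coefficient for this pair. With 13 control regions on the whole chromosome, this value rests on windows of 0 to 3 control regions.

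On chromosomes 19 and 21 a large part of the control regions lay around the centromere. On chromosome 21 the window from 10 to 15 Mb held 7 control regions and 4 and 3 in shCDK12+OHT, and 10 of the 23 control regions lay in or within 2 Mb of the centromere bands. The window from 30 to 35 Mb tied with it in the control, at 7 regions, and was the densest of each shCDK12+OHT replicate, at 11 and 10. On chromosome 19 all 5 control regions lay between 25 and 35 Mb and in or within 2 Mb of the centromere bands, and 16 of the 25 regions of shCDK12+OHT replicate 2 (64%) fell in the same 10 Mb. The density of replicate 2 was 1.6 regions per Mb there and 0.183 over the rest of the chromosome. Over the 10 chromosomes, 42 of 328 control regions (12.8%) lay in these bands and flanks, against 73 of 1518 (4.81%) and 75 of 1185 (6.33%) in shCDK12+OHT. Within 5 Mb of a chromosome end lay 50 of 328 control regions (15.2%), against 152 of 1518 (10.01%) and 121 of 1185 (10.2%) in shCDK12+OHT. The first 5 Mb of chromosome 18 alone held 40 control regions, and 41 and 31 in shCDK12+OHT. The higher share of the control thus rests on that window and does not describe chromosome ends in general.

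How many control regions were found again after CDK12 silencing was measured as the share that a shCDK12+OHT region touched by at least 1 bp. Of the 328 control regions, 144 (43.9%, 95% Wilson interval 38.6 to 49.3) were touched by either shCDK12+OHT list, close to the 44.0% found over all control regions of the series. Replicate 1 touched 126 (38.4%) and replicate 2 touched 108 (32.9%), and 90 (27.4%) were touched by both. The 328 include 5 control regions on chromosome 19, which replicate 1 does not list and could not touch. The 2 sets of chromosomes gave like shares, with 75 of 168 (44.6%, 37.3 to 52.2) for shNT+OHT replicate 1 and 68 of 155 (43.9%, 36.3 to 51.7) for shNT+OHT replicate 2 without chromosome 19. In the other direction, control regions touched 120 of 1518 regions of shCDK12+OHT replicate 1 (7.91%) and 108 of 1185 of replicate 2 (9.11%), against 11.9 and 14.5% over all chromosomes, where up to 2 control lists could touch a region. Intervals cover counting error only, since neighbouring regions are not independent.

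The share found again ranged widely between chromosomes. It was highest on chromosome 22, where 16 of 17 control regions (94.1%, 73.02 to 98.95) were touched, and it was 15 of 23 (65.2%, 44.9 to 81.2) on chromosome 15 and 14 of 23 (60.9%, 40.8 to 77.8) on chromosome 21. It was lowest on chromosome 3, with 9 of 44 (20.5%, 11.2 to 34.5), and on chromosome 5, with 20 of 65 (30.8%, 20.9 to 42.8), apart from chromosome 19, where 1 of 5 was touched. Chromosomes 9 (8 of 16), 17 (29 of 62, 46.8%), 18 (27 of 60, 45%) and 20 (5 of 13, 38.5%) lay between. The interval of chromosome 22 lay above those of all others but chromosomes 15 and 21, and that of chromosome 3 lay below those of chromosomes 15, 17 and 21. The shares were not tested against each other.

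Inside the dense stretches, drawn after the counts were seen, the share found again was lower than outside on chromosomes 3, 5, 17 and 18 and higher on chromosomes 15 and 22. The intervals inside and outside lay apart on chromosomes 3 and 17 and overlapped on the others. They cover counting error only, for clustered regions of 1 control library, and the stretches were drawn from the same counts. A gap between intervals is therefore no test of a difference. On chromosome 3 only 2 of the 29 control regions between 95 and 130 Mb (6.90%, 1.91 to 21.96) were touched, against 7 of 15 (46.7%, 24.8 to 69.9) on the rest of the chromosome, although shCDK12+OHT listed 75 and 68 regions in that stretch. On chromosome 17 the values were 21 of 53 (39.6%) inside its stretch and 8 of 9 outside, and on chromosome 5 they were 9 of 40 (22.5%) in the first 45 Mb and 11 of 25 (44%) on the rest. On chromosome 18 they were 23 of 54 (42.6%) and 4 of 6. On chromosome 22, by contrast, all 13 control regions between 20 and 30 Mb were touched, and on chromosome 15 the share was 9 of 12 between 60 and 70 Mb and 6 of 11 elsewhere. On chromosome 9 the shares were 1 of 7 between 25 and 30 Mb against 7 of 9 elsewhere, and 4 of 6 between 90 and 100 Mb against 4 of 10. On chromosome 21 they were 3 of 7 between 30 and 35 Mb against 11 of 16. Width went with recurrence: 23 of 28 control regions of 2 or more bins were touched (82.1%, 64.4 to 92.1), against 121 of 300 of 1 bin (40.3%, 34.9 to 45.97). Part of this follows from the definition, since a wider region is touched more easily.

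Gaps were then measured from each control region to the nearest shCDK12+OHT region. Of the 184 untouched regions, 11 adjoined a shCDK12+OHT region, 83 (45.1%) lay within 100 kb of one, and the median gap was 127 kb. Over all 328 control regions, 53.4% lay within 10 kb and 69.2% within 100 kb of a shCDK12+OHT region, and the farthest was 1752 kb away. On chromosomes 3 and 5 the median gap was 139 and 198 kb, whereas it was at most 28 kb on each of the other 8 chromosomes. The gap also depends on how many shCDK12+OHT regions a chromosome holds. In the other direction the gaps were longer, and the control lists are shorter: the median from a region of shCDK12+OHT replicates 1 and 2 to the nearest control region was 1108 and 1050 kb.

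**Figure D4:**
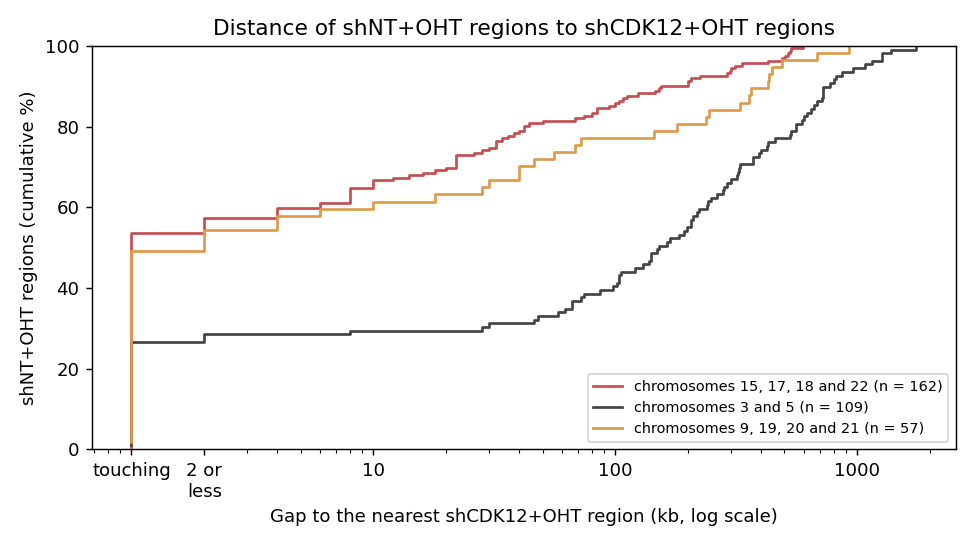
Cumulative share of control regions (y axis, percent) by the gap to the nearest shCDK12+OHT region (x axis, kb, log scale, regions that touch drawn at the left end), for 3 groups of chromosomes drawn up after the values were seen. On chromosomes 3 and 5, 26.6% of the 109 control regions touch and 40.4% lie within 100 kb, against 53.7 and 85.8% of the 162 regions on chromosomes 15, 17, 18 and 22.

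The replicates of shCDK12+OHT were then compared on the 9 chromosomes that both list. Of the 1518 regions of replicate 1, 844 were touched by replicate 2 (55.6%, 95% Wilson interval 53.1 to 58.1), and of the 1160 regions of replicate 2, 846 were touched by replicate 1 (72.9%, 70.3 to 75.4). Over all chromosomes listed by both, the shares were 56.4 and 72.2%. The Jaccard index, shared length over the length of the union, was 0.433 here, beside 0.453 for the 8 chromosomes that every library lists. Both shares over all chromosomes lay within the counting intervals of the shares found here.

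By chromosome, replicate 2 found again between 45.6% (68 of 149, chromosome 22) and 61.7% (158 of 256, chromosome 3) of the regions of replicate 1. Replicate 1 found again between 64.7% (139 of 215, chromosome 5) and 81.7% (67 of 82, chromosome 22) of those of replicate 2. Chromosome 22 was the extreme in both directions, and its lists were also the most unequal in number, with 149 regions against 82. Its Jaccard index was 0.356, against a ceiling of 0.493 set by the covered lengths of 434 and 214 kb. Chromosome 21 had the lowest index, 0.300, at a ceiling of 0.416, and chromosome 3 the highest, 0.483, at a ceiling of 0.818. On chromosome 21, replicate 1 covered 202 kb with 41 regions and replicate 2 covered 84 kb with 33.

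**Figure D5:**
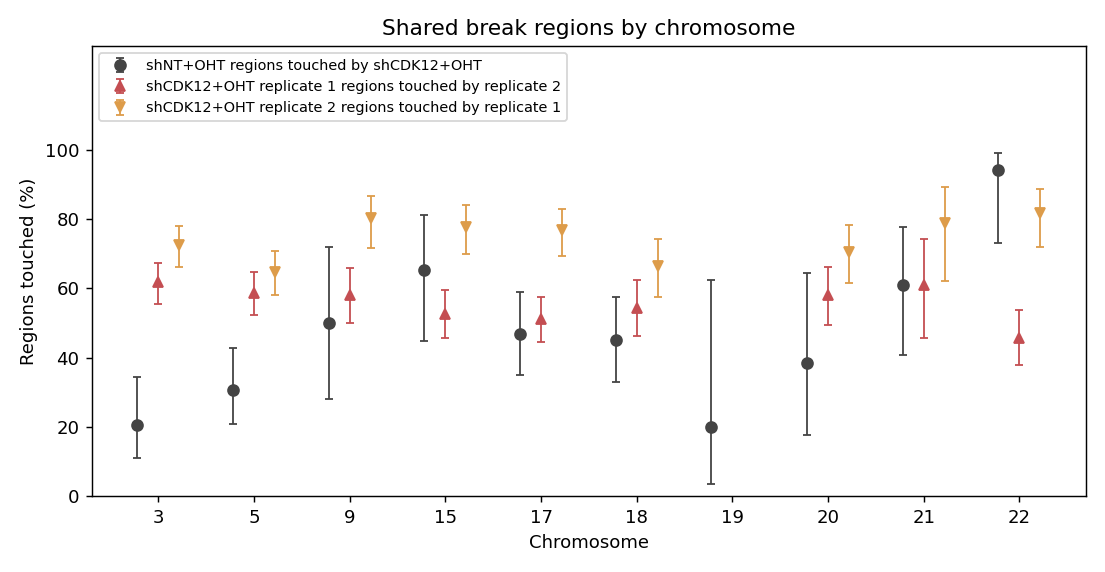
Share of regions touched by at least 1 bp (y axis, percent) on each chromosome (x axis), with 95% Wilson intervals, for control regions touched by either shCDK12+OHT list and for each shCDK12+OHT replicate touched by the other. The control share runs from 20% on chromosome 19 (1 of 5 regions) and 20.5% on chromosome 3 to 94.1% on chromosome 22, while replicate 1 of shCDK12+OHT stays between 45.6 and 61.7% on the 9 chromosomes with a value.

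Merging the control and both shCDK12+OHT lists gave 2036 regions. Of these, 749 (36.8%) were present in both shCDK12+OHT replicates and no control list, 967 (47.5%) in 1 shCDK12+OHT replicate alone, and 184 (9.04%) in the control alone. A further 92 (4.52%) were present in the control and both shCDK12+OHT replicates, and 44 (2.16%) in the control and 1 of them. Chromosome 19, which shCDK12+OHT replicate 1 does not list, could add shCDK12+OHT regions only to the classes with 1 replicate. It added 24 without and 1 with the control. Regions found in all 3 lists had a mean width of 6.26 kb and a median of 6 kb, against a median of 2 kb in the other 4 classes. Merging can only widen a region, which sets part of this order. The control list that lacks a chromosome says nothing about breaks there, so "no control list" means the 1 control replicate that lists it.

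Of the longest regions common to the control and both shCDK12+OHT replicates, those on chromosomes 21 and 20 lay in or within 2 Mb of the centromere bands. The longest was a 68 kb merged region on chromosome 21 (10774001 to 10842000), of which the control covered 36 kb, shCDK12+OHT replicate 1 the full 68 kb and replicate 2 only 4 kb. A 30 kb region on chromosome 20 (29804001 to 29834000) had the same limits in all 3 lists, as did a 12 kb region on chromosome 9 (68414001 to 68426000), 1 of 3 of that width. The others were a 16 kb region on chromosome 17 (61038001 to 61054000), with 4 kb in the control and 16 and 8 kb in shCDK12+OHT, and a 14 kb region on chromosome 22 (28310001 to 28324000), with 10 kb against 10 and 14 kb. The regions on chromosomes 17 and 22 lay inside the dense stretches of their chromosomes.

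The longest control region of each chromosome was found again by a shCDK12+OHT list on 8 of 10 chromosomes. On chromosome 5 it was 8 kb long (134258001 to 134266000) and on chromosome 15 it was 6 kb long (62350001 to 62356000), both with the same length in each shCDK12+OHT replicate. On chromosome 18 the 12 kb control region (1750001 to 1762000) was touched by 2 shCDK12+OHT regions of 4 kb in all in either replicate. On chromosome 19 the 6 kb region (29956001 to 29962000) was touched by 1 bin of replicate 2, and on chromosome 21 the 14 kb region (10786001 to 10800000) by replicate 1 alone. The 8 kb region of chromosome 22 (28310001 to 28318000) and those of chromosomes 9 and 20 belong to the merged regions given above. The exceptions were the 6 kb regions of chromosome 3 (112582001 to 112588000) and chromosome 17 (69596001 to 69602000), which lay 104 and 518 kb from the nearest shCDK12+OHT region.

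The longest regions of both shCDK12+OHT replicates without a control region were shorter, at 12 to 14 kb. That of 14 kb lay on chromosome 5 (36870001 to 36884000), inside the densest shCDK12+OHT window of the chromosome, with 12 kb in each replicate. Those of 12 kb were on chromosome 3 (112272001 to 112284000), chromosome 5 (132070001 to 132082000 and 140254001 to 140266000) and chromosome 17 (56058001 to 56070000). In the first of them the replicates covered 8 and 12 kb, and in the last 8 and 6 kb. The region of chromosome 17 lay in the window that was the densest in both groups.

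Crowding was measured as the share of regions near another of the same list. Within 100 kb of another region of the same list lay 43.5% of regions in shNT+OHT replicate 1 on its 5 chromosomes, between the 46.9 and 36.9% of shCDK12+OHT replicates 1 and 2 (difference -1.60 percentage points, exact permutation p-value 1). On chromosomes 5, 18, 20 and 22 it was 40.6% in shNT+OHT replicate 2 and 54.1 and 43.6% in shCDK12+OHT (difference 8.21 percentage points, exact permutation p-value 0.667, 0.727 after adjustment). The shCDK12+OHT lists held 3.39 to 5.11 times as many regions on these chromosome sets. The direction of the first difference turned without shCDK12+OHT replicate 2 (3.40 percentage points). For neighbours within 500 kb, both shCDK12+OHT lists lay above the control on either set, by 17.2 and 16.8 percentage points on average (exact permutation p-value 0.333, the smallest possible).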

How the data were processed

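The members and stretches were chosen with earlier results of these data known. Per the labels, the lists are on hg19; they are the authors' calls and hold chromosome, start and end in 3 columns, deposited as 1 list per library without counts. The methods of a study that re-used the shNT+OHT lists describe removal of duplicates by UMI, UMI counts per 2 kb bin, a fixed threshold and merging across gaps of up to 2 kb; whether the same threshold and down-sampling made these lists is not stated, and no correction for copy number, which varies in U2OS, is described. All starts and ends were multiples of 2 kb.

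Densities used hg19 chromosome lengths. Regions touched when they shared at least 1 bp. Windows of 5 Mb were counted from the chromosome start, with a region assigned by its midpoint. Centromere bands were rounded to whole Mb and flanked by 2 Mb. Libraries were compared by exact permutation tests over 3 relabellings, adjusted over 12 tests. Named regions followed a fixed rule: on each chromosome the longest control region and the densest window of each group, and the 5 longest merged regions of 2 classes. The functions were tested on simulated data. Python 3.11.15, numpy 2.4.6, pandas 2.3.3, scipy 1.17.1 and matplotlib 3.10.9 were used.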

Additional observations from a re-analysis of the deposited data

How the results depend on the processing

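Over 16 results and 82 alternatives, 63 kept direction or stayed within the spread, 12 moved and 7 reversed. Exact tests of 1 against 2 libraries cannot pass a threshold of 0.05, so only directions were assessed. The log2 ratio of density stayed between 1.92 and 3.84 on the chromosomes of shNT+OHT replicate 1 and between 1.76 and 3.53 on those of replicate 2, the highest being for regions of at least 4 kb. Mean width reversed among regions of at least 4 kb (-0.579 and -1.68 kb), of which the control held only 28 over the 10 chromosomes. The share with a neighbour within 100 kb reversed on the first set after merging across 10 kb (3.47 percentage points), without centromere flanks (2.30) and for neighbours within 500 kb (17.2), and on the second set for regions of at least 4 kb (-6.76). For regions of at least 4 kb the first set gave -22.9. Leaving out each shCDK12+OHT replicate gave -6.60 to 3.40 points on the first set and 2.97 to 13.4 on the second.

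The share of control regions touched was 53.4% within 10 kb and 60.7% for regions of at least 4 kb. Leaving out libraries gave 32.9 to 44.6%. Control regions touched 8.51% ± 0.855 (SD, n = 2) of those in shCDK12+OHT, against 10.9% within 10 kb, 6.18% when 50% of the region had to be covered, and 3.22% for regions of at least 4 kb; leaving out libraries gave 7.91 to 9.11%. Agreement of shCDK12+OHT replicate 1 was 62.7% within 10 kb, 50.3% when 50% had to be covered and 48.3% for regions of at least 4 kb. That of replicate 2 was 79.3% within 10 kb and 75.8% for regions of at least 4 kb. In each case the alternative changes what counts as a region or as touching; beyond that the cause was not tested.

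No paired analysis was possible because each chromosome is listed by 1 shNT+OHT replicate, so the groups share 1 replicate number. Same-numbered libraries gave log2 ratios of 2.35 and 1.76. Depth is unknown, so differences in region number and in library yield cannot be told apart. Measuring length between the outermost regions changes densities and not the ratio of shCDK12+OHT to the control on a chromosome. It does change the order of chromosomes in shCDK12+OHT, placing 15 above 20 and 21 above 9.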
